A study of Mus musculus with 6 samples.

Results

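The levels of 30 genes of the oligodendrocyte lineage were read in RNA sequencing counts of adult neural stem cell (NSC) neurospheres from mice with or without a deletion of *Tet3*. The genes were taken by their symbols from the 49671 genes of the count table, and all 30 had a row. They were grouped by the stage at which they are best known: 5 lineage transcription factors, 5 genes of oligodendrocyte progenitor cells (OPCs), 7 genes of committed and premyelinating cells, 11 genes of myelin and mature oligodendrocytes, and 2 secreted lipocalins.

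The study deposited 6 libraries with 29660398 to 35405326 counts each, of which 3 carried the label *Tet3-Gfap* control and the other 3 *Tet3-Gfap* cre. Neurospheres are floating colonies that NSCs form in culture, here from the subventricular zone (SVZ) of mice aged 2 to 4 months and kept proliferating in EGF and FGF. Control mice were *Tet3* loxp/loxp *Gfap-cre* 0/0, and *Tet3-Gfap* cre mice were *Tet3* loxp/loxp *Gfap-cre* +/0, so both genotypes carried the floxed *Tet3* alleles on a C57BL6 background and differed in the Cre transgene. Cre is driven by a *Gfap* promoter, so deletion is limited to cells in which that promoter was active and to their progeny. Cultures were started from the brains of 2 animals, and it is not stated whether the 3 libraries of a genotype came from separate cultures, so the p-values measure the spread between these libraries, which may be technical.

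The targeted gene went against the label of 1 library in each group. *Tet3*, the deleted methylcytosine dioxygenase, is given in CPM, counts scaled to a library size that TMM normalization adjusts. In the control labels 1, 2 and 3 its level was 114, 136 and 60.2 CPM, and in the cre labels 1, 2 and 3 it was 61.2, 60.5 and 116 CPM. Of these, the libraries labelled control 3 and cre 3 lay with the other genotype. *Gfap* split the libraries in the same way, at 0.502, 0.327 and 6.61 CPM in the control labels and 3.84, 3.51 and 0.279 CPM in the cre labels. Each comparison is therefore given by the labels in 6 libraries and again in 4 libraries, namely control 1 and 2 and cre 1 and 2. Since the libraries left out were chosen by their *Tet3* and *Gfap* levels, the second comparison is not independent of that choice. All 10 NSC markers were at 1 CPM or more on average, among them *Vim* at 3095 to 4118 CPM and *Fabp7* at 1717 to 2374 CPM. So were 9 of 10 astrocyte, 7 of 10 neuron and 6 of 10 Schwann cell markers. For ependymal, vascular and leptomeningeal, and microglia markers it was 2 of 8, 3 of 12 and 0 of 8. This bar alone therefore does not set the cell type.

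Oligodendrocytes are the myelinating glia of the central nervous system. They arise from OPCs, which divide in response to PDGF, then exit the cell cycle, pass through a short-lived committed stage and switch on the genes of the myelin sheath. The basic helix-loop-helix factors OLIG1 and OLIG2 act from the earliest steps, SOX10 and NKX2-2 are needed for the later ones, and MYRF drives the myelin programme directly. In the adult SVZ some NSC progeny take this path, and *Olig2* is also on in cycling progenitors that are not yet committed to it.

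TET enzymes oxidise 5-methylcytosine, which in mammals lies mainly at CpG dinucleotides, so the promoter CpG of the members was counted first. RefSeq windows of GRCm38.p6, from 250 bases before to 50 bases after a gene start, were matched for 23 of the 30 members by symbol. None was matched for *Olig1*, *Sox10*, *C1ql1*, *Gpr17*, *Bcas1*, *Myrf* and *Mbp*. The motif was CG, which reads the same on both strands. All 27025 genes with a window had a median of 7 CG. Members with a mean of at least 10 CPM held a median of 17 (range 2 to 40, 11 genes), and those under 10 CPM a median of 5 (range 2 to 24, 12 genes). All genes were not split by level in this way, so the difference cannot be read as particular to the members. The windows of 4 members are shown 5′ to 3′, with each CG in capitals: *Olig2* at chr16:91225300-91225599 (plus strand), *Cnp* at chr11:100574689-100574988 (plus strand), *Mog* at chr17:37023349-37023648 (minus strand) and *Opalin* at chr19:41077064-41077363 (minus strand). They set the second most abundant member and the most abundant myelin member against myelin genes with means of 0.0472 CPM (*Mog*) and 1.03 CPM (*Opalin*).
Olig2: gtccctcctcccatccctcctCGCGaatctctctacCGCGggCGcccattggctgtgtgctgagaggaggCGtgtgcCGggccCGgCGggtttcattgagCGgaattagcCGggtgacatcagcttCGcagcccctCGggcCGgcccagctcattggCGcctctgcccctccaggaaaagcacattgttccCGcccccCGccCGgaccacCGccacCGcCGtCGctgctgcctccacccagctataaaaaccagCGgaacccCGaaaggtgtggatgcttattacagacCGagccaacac
Cnp: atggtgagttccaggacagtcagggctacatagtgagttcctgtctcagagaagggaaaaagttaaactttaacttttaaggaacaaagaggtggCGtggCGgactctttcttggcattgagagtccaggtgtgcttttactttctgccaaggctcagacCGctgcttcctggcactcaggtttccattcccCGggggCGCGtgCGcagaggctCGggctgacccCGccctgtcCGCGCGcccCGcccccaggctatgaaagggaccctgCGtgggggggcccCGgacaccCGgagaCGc
Mog: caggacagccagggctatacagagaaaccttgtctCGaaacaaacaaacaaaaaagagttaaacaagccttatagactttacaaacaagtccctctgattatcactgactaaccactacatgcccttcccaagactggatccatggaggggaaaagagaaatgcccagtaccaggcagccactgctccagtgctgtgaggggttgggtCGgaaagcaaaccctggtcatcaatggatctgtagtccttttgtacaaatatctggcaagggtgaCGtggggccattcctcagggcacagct
Opalin: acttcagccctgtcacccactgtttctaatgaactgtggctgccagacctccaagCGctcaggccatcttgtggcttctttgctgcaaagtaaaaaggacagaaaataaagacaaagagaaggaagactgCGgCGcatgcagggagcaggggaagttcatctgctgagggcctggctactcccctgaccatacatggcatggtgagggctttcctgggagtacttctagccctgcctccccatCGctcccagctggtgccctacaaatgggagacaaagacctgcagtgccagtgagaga

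The *Olig2* window held 25 CG, and 18.4% of all windows held at least as many. For *Cnp* this was 17 CG and 31.9%, for *Opalin* 4 CG and 68.1%, and for *Mog* 3 CG and 76.2%. The order was not strict. *Ptgds*, with 2 CG, was at 53.3 CPM, whereas *Cldn11*, with 24 CG, was at 0.871 CPM. CpG content in these letters says nothing of methylation, which these counts do not measure.

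**Figure D1:**
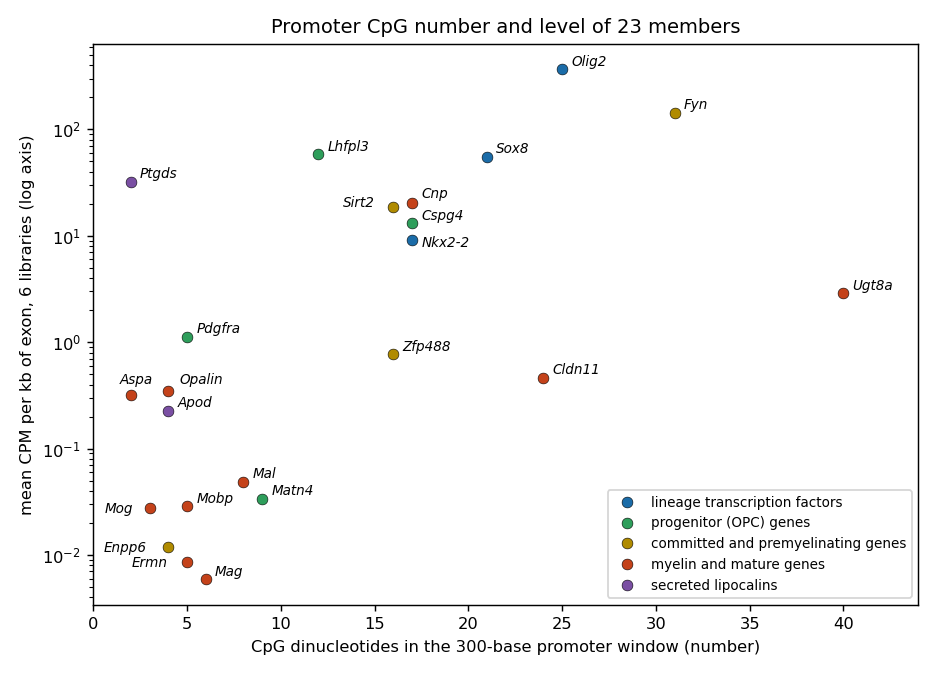
Promoter CpG number (x axis, CG in the 300-base window) against level (y axis, mean CPM per kb of exon over 6 libraries, log scale) for the 23 members with a RefSeq window, coloured by stage. Of the 11 members with a mean of at least 10 CPM, *Ptgds* has the fewest CG (2) and *Ugt8a* the most (40), and *Mog*, *Enpp6*, *Ermn* and *Mag*, at the bottom, have 3 to 6.

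The most abundant members were transcription factors, and 9 of the 11 myelin and mature genes were under 2 CPM. Of all members 13 had a mean of at least 10 CPM, 6 lay from 1 to under 10 CPM and 11 were under 1 CPM, beside a median of 20.3 CPM over the 16916 genes that had enough counts to be tested. In order of level per kb of exon, *Olig1*, *Olig2* and *Fyn* (144 CPM per kb) led with no overlap of their ranges over libraries, whereas the next, *Lhfpl3* and *Sox8*, overlapped (44.8 to 73.5 and 46.9 to 70.6), as did *Cnp* and *Sirt2* (15.0 to 23.4 and 17.4 to 21.1). In bulk counts, a low level from fewer cells of a type and from less RNA per cell cannot be told apart. A floor of 3 counts in a library corresponds to 0.0847 to 0.102 CPM, and this covers counting error only.

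**Figure D2:**
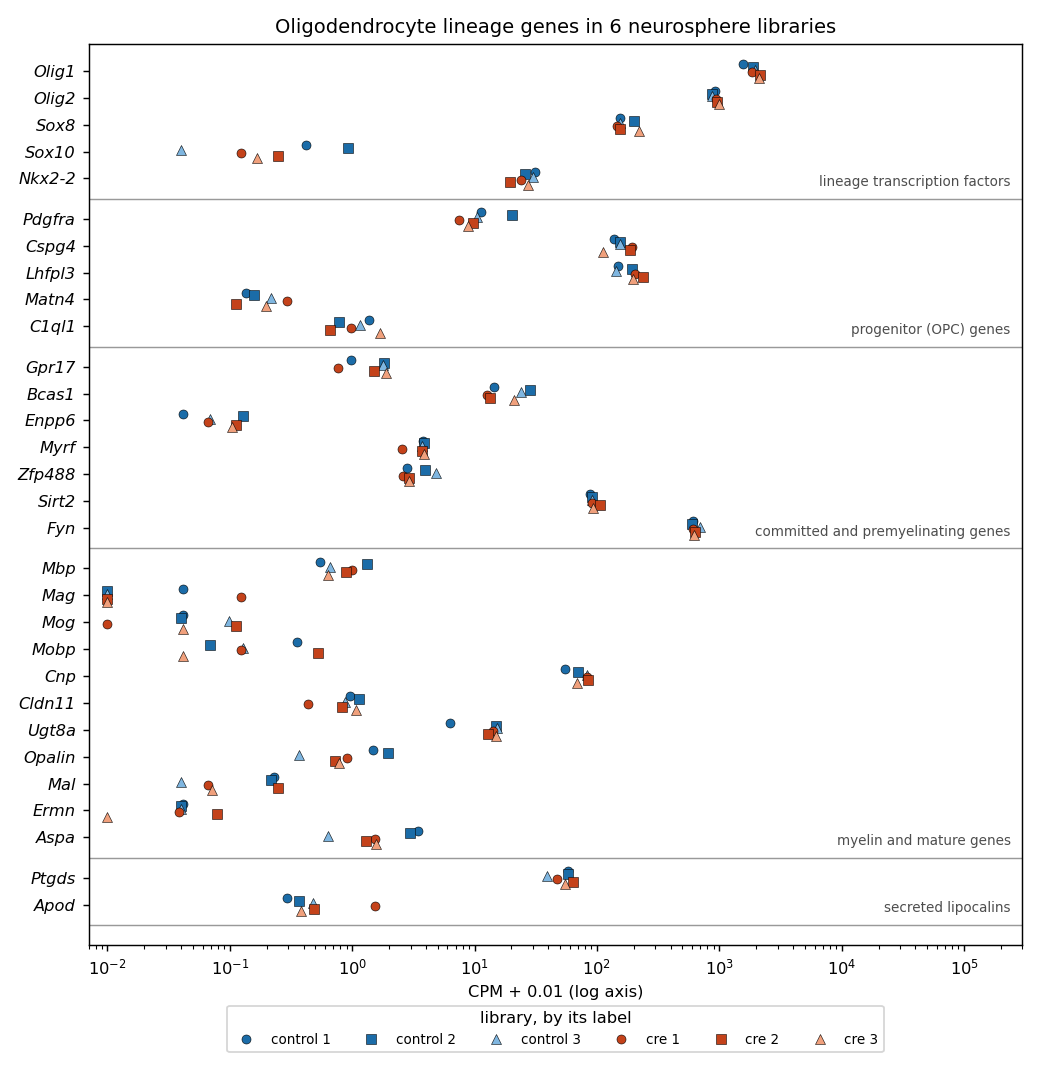
Level of each member (x axis, CPM plus 0.01, log scale) in the 6 libraries, by stage. Colour and shape give the library by its label, and CPM is not corrected for gene length, so levels are to be compared along a row. *Olig1* and *Olig2* lie furthest right in every library, and *Mag*, *Mog* and *Ermn* lie within a few counts of 0.

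Among the transcription factors, *Olig1* had levels of 1576, 1883 and 1956 CPM in the control labels, in the order of their numbers, and of 1854, 2166 and 2126 CPM in the cre labels. Only 21 tested genes had a higher mean CPM. *Olig2*, its neighbour on chromosome 16, was at 927, 866 and 875 CPM in the control labels and 941, 962 and 986 CPM in the cre labels. Both were even over libraries, with a highest value 1.37 and 1.14 times the lowest. Per kb of exon, 99.8% of tested genes lay below *Olig1* (891 CPM per kb) and 99.3% below *Olig2* (366 CPM per kb), and *Olig1* was 2.43 times *Olig2*. The genes (*Olig2* at chr16:91225457-91228677, *Olig1* at chr16:91269772-91271933, GRCm38, both on the plus strand) lie 41094 bases apart. An antisense gene, *Gm15966*, overlaps 7.26% of the exon bases of *Olig1*, and since the strand setting of the counting is not stated, its reads cannot be separated.

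The SOX factors of the lineage were far apart. *Sox8*, a SOXE factor that in mice shares roles with *Sox10* in oligodendrocytes, was at 153, 200 and 155 CPM in the control labels and 146, 155 and 220 CPM in the cre labels. *Sox10*, which the lineage keeps from OPC to myelinating cell, had 13, 31 and 1 counts in the control labels and 4, 7 and 5 in the cre labels. Per kb, *Sox8* was at 540 times the level of *Sox10*, and the third SOXE gene, *Sox9*, was at 35.8 CPM per kb against 55.0 for *Sox8*. *Sox10* was highest in control 2 (0.920 CPM) and lowest in the library labelled control 3 (0.0295 CPM), with the cre labels between them. *Nkx2-2*, a homeodomain factor of the switch from OPC to differentiating cell, was at 30.9, 25.9 and 30.3 CPM in the control labels and 24.1, 19.5 and 27.1 CPM in the cre labels, and the groups overlapped through the library labelled cre 3.

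The 5 OPC genes were split between abundant and rare. *Pdgfra*, the PDGF receptor by which OPCs are usually recognised, was at 11.2, 20.3 and 10.5 CPM in the control labels and 7.45, 9.75 and 8.82 CPM in the cre labels. The control 2 library stood above the other 5, and no cre label reached the lowest control. *Cspg4*, the NG2 proteoglycan of OPCs and pericytes, was at 138, 154 and 155 CPM against 193, 187 and 112 CPM, so that the library labelled cre 3 was the lowest of the 6 and the other cre labels the highest. *Lhfpl3*, a tetraspan gene used as an OPC marker, was at 149, 195 and 144 CPM against 203, 236 and 197 CPM, and every cre label lay above every control label. An antisense-strand neighbour shares 17.6% of the exon bases of *Lhfpl3*, the most of any member. Per kb, *Lhfpl3* (58.3) stood above *Cspg4* (13.1) and *Pdgfra* (1.13) with no overlap of their ranges over libraries. *C1ql1*, a secreted C1q-like protein, lay between 0.648 and 1.68 CPM, and *Matn4*, a matrilin of the extracellular matrix, between 0.102 and 0.282 CPM.

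Of the 7 committed and premyelinating genes, *Enpp6*, *Gpr17*, *Myrf* and *Zfp488* were low, and *Bcas1* stood between these and the rest. *Enpp6*, a choline phosphodiesterase of newly formed oligodendrocytes, had 1 to 4 counts in any library, and *Gpr17*, a receptor of committed precursors, 27 to 61 counts (0.762 to 1.86 CPM). *Myrf* was at 2.54 to 3.88 CPM and *Zfp488*, a zinc finger partner of OLIG2, at 2.60 to 4.81 CPM. *Bcas1*, expressed in early myelinating cells, was at 14.4, 28.4 and 23.8 CPM in the control labels and 12.6, 13.3 and 21.1 CPM in the cre labels, with overlap. The genes of the group with broad expression outside the lineage were much higher. *Fyn*, a Src family kinase, was at 596 to 695 CPM and *Sirt2*, a tubulin deacetylase abundant in myelin, at 87.4 to 106 CPM, and these were among the members with the smallest spread.

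The myelin genes were led by a pair. *Cnp*, a phosphodiesterase of non-compact myelin that is also on in OPCs, was at 54.7, 69.7 and 82.2 CPM in the control labels and 83.3, 85.2 and 68.9 CPM in the cre labels. *Ugt8a*, the galactosyltransferase that makes the main myelin lipid, was at 6.28, 14.8 and 15.2 CPM against 14.1, 13.0 and 14.8 CPM, and control 1 was low for both. Together they made up 94.5% of the summed CPM of the 11 genes. The structural proteins of the sheath were near 0. *Mbp*, myelin basic protein, lay between 0.534 and 1.31 CPM. *Mobp* had 1 to 15 counts, *Mog* 0 to 3, *Ermn* 0 to 2, *Mal* 1 to 7 and *Cldn11*, the claudin of myelin tight junctions, 15 to 38. *Mag*, the myelin-associated glycoprotein, had 1 count in control 1, 4 in cre 1 and 0 in the other 4 libraries.

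*Opalin* and *Aspa*, both genes of mature oligodendrocytes, shared a pattern over the libraries. *Opalin*, a sialylated membrane protein of myelin, was at 1.48, 1.96 and 0.354 CPM in the control labels and 0.903, 0.716 and 0.776 CPM in the cre labels. *Aspa*, aspartoacylase, which releases acetate from N-acetylaspartate, was at 3.45, 2.97 and 0.620 CPM against 1.52, 1.30 and 1.55 CPM. For both, control 1 and control 2 were the highest libraries and the library labelled control 3 the lowest, with the cre labels close together between them. Their highest library was 5.53 and 5.57 times the lowest. The lipocalins differed in level. *Ptgds*, prostaglandin D2 synthase, which leptomeninges and oligodendrocytes secrete, was at 39.0 to 63.3 CPM, and *Apod*, a lipid-binding lipocalin of glia and of connective tissue, was at 0.282, 0.356 and 0.472 CPM in the control labels and 1.52, 0.477 and 0.373 CPM in the cre labels. Only cre 1 stood apart for *Apod*.

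**Figure D3:**
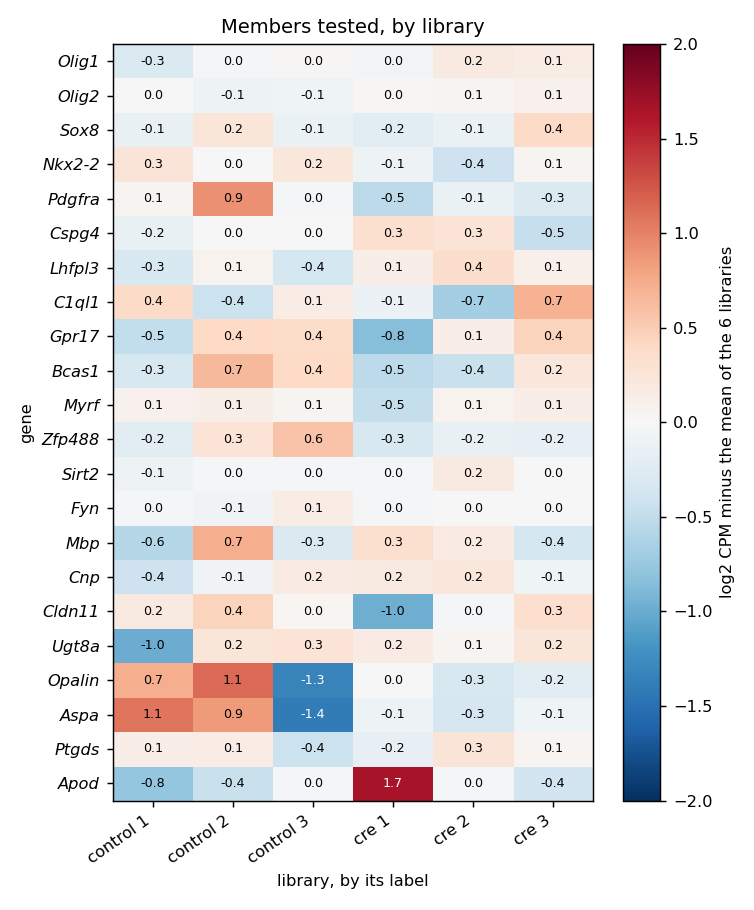
Log2 CPM of the 22 members with enough counts (rows) in each library (columns), as the difference from the member's mean over the 6 libraries; blue is below and red above the mean. *Opalin* and *Aspa* are low in the library labelled control 3, *Apod* is high in cre 1, and *Olig1*, *Olig2*, *Sirt2* and *Fyn* stay near 0 throughout.

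Many members varied between libraries. In 10 of the 22 members with enough counts, or 45.5%, the highest library was at least 2-fold the lowest, against 20.3% of all tested genes. These were *Pdgfra*, *C1ql1*, *Gpr17*, *Bcas1*, *Mbp*, *Cldn11*, *Ugt8a*, *Opalin*, *Aspa* and *Apod*, of which 7 had a mean under 2 CPM, and counting noise is larger at such levels. No library carried the whole set up or down: members were highest in control 2, cre 2 and the library labelled cre 3 (5 each), and lowest most often in cre 1 (7) and control 1 (6). For cre 1 this was 31.8% of members against 14.7% of all tested genes, and for control 1 it was 27.3% against 21.0%. Summed over a stage, the highest library was 1.25 times the lowest for the transcription factors, 1.45 for the OPC genes, 1.14 for the committed genes, 1.51 for the myelin genes and 1.62 for the lipocalins. These sums follow the most abundant genes of a stage. For the committed genes that was *Fyn* (mean 628 CPM), whereas *Bcas1* (18.9 CPM) and *Gpr17* (1.45 CPM), which varied at least 2-fold, weighed little.

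By the labels, no member passed the test between the genotypes. Of the 22 members tested, 0 passed an adjusted p of 0.05 in edgeR's quasi-likelihood test, as did 0% of the 16916 genes. *Lhfpl3* was 1.30-fold higher in cre (212 ± 20.9 against 163 ± 27.9 CPM, SD, n = 3; log2 fold change 0.38, SE 0.13), with an adjusted p of 0.910 in edgeR. *Pdgfra* was lower in cre (8.68 ± 1.16 against 14.0 ± 5.45 CPM, SD, n = 3; log2 fold change -0.69, SE 0.26), with an adjusted p of 0.974 in edgeR. Without control 2 its log2 fold change was -0.33. They were the 2 members with an unadjusted p under 0.05, which is 9.09% of members against 5.0% of all genes. The groups did not overlap for *Lhfpl3*, *Olig2* and *Pdgfra*, or 13.6% of members against 9.47% of all genes. For *Olig2* the difference was small (963 ± 22.7 against 889 ± 33.1 CPM, SD, n = 3; log2 fold change 0.12, 95% interval -0.03 to 0.26).

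For 15 members the 95% interval lay within 2-fold in either direction, which is 68.2% of members against 81.9% of all genes. For *Olig1* it ran from -0.06 to 0.43 on the log2 scale, for *Fyn* from -0.20 to 0.14, for *Sirt2* from -0.06 to 0.28 and for *Cnp* from -0.15 to 0.55. The 7 with wider intervals were *Pdgfra*, *Gpr17*, *Bcas1*, *Cldn11*, *Opalin*, *Aspa* and *Apod*. For *Aspa* the interval ran from -1.94 to 0.58 and for *Opalin* from -1.92 to 0.61. In the same fit *Tet3* itself had a log2 fold change of -0.38 (SE 0.35) and was not called. These intervals therefore compare the labels and do not bound an effect of *Tet3* loss. The 8 members with too few counts to test were *Sox10*, *Matn4*, *Enpp6*, *Mag*, *Mog*, *Mobp*, *Mal* and *Ermn*. The median log2 fold change of the 22 was 0.01, with 12 higher and 10 lower in cre, and that of all genes was -0.005. By stage it was 0.08 for the 4 transcription factors tested, 0.07 for the 4 OPC genes and -0.15 for the 6 committed genes. For the 6 myelin genes it was -0.18 (3 higher and 3 lower in cre), and for the 2 lipocalins 0.60.

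Other tools gave the same count of 0 members by the labels: DESeq2 (0.414% of all genes called), edgeR's likelihood-ratio test (0.301%), its exact test (0.402%), limma-voom (0%), and the quasi-likelihood test with no filter on low counts, which takes in all 30 members (0.0104%).

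**Figure D4:**
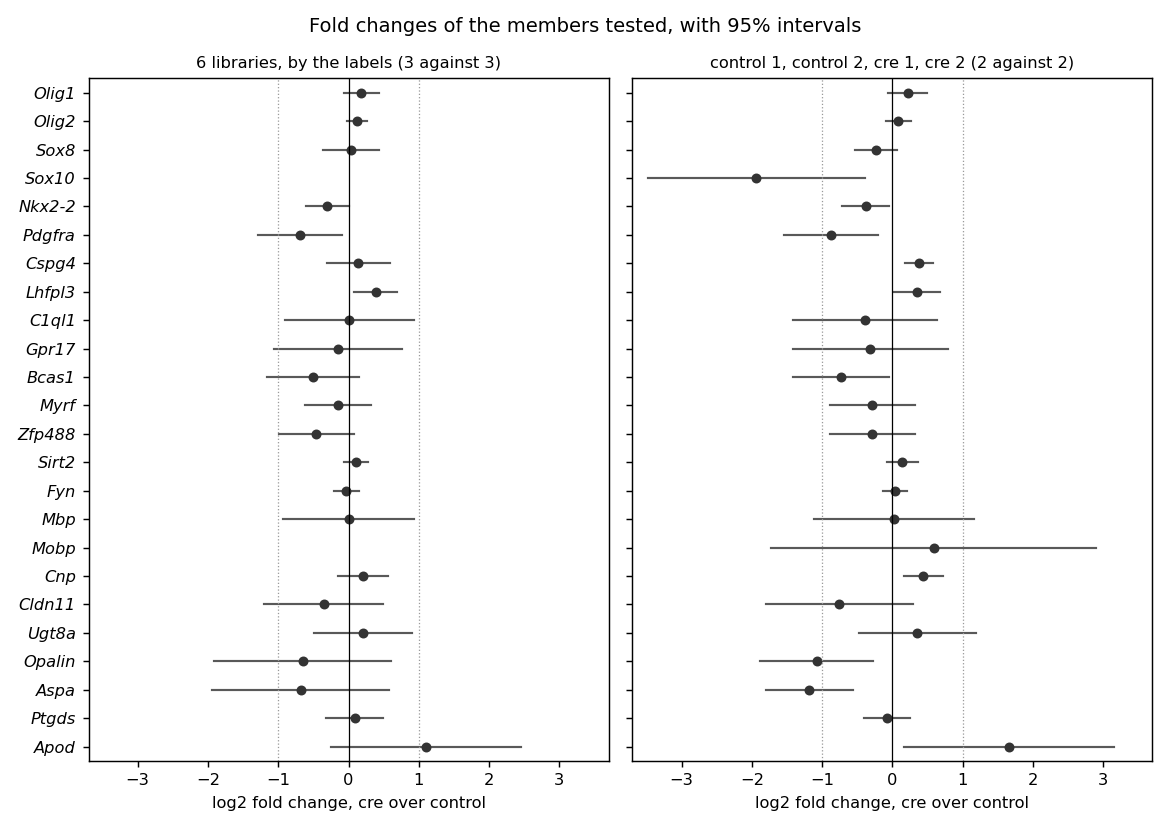
Log2 fold change of cre over control with its 95% interval from edgeR's quasi-likelihood fit, for the 22 members tested by the labels (left) and the 24 tested in 4 libraries (right); dotted lines mark 2-fold. On the left, *Pdgfra* and *Lhfpl3* are the members whose interval leaves out 0; on the right there are 10, among them *Cspg4*, *Cnp* and *Aspa*.

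With control 1 and 2 and cre 1 and 2 alone, the log2 fold change was larger in size for 18 of the 22 members tested in both comparisons and smaller for *Lhfpl3*, *Olig2*, *Ptgds* and *Zfp488*, and its sign turned for *C1ql1*, *Fyn*, *Ptgds* and *Sox8*. Again 0 of the 24 members tested passed an adjusted p of 0.05 in edgeR's quasi-likelihood test, against 0.459% of all genes (78 of 17003). An unadjusted p under 0.05 was found for 10 members, or 41.7% against 11.2% of all genes. *Cspg4*, *Cnp*, *Lhfpl3* and *Apod* were on the higher side in cre, and *Nkx2-2*, *Bcas1*, *Pdgfra*, *Aspa*, *Sox10* and *Opalin* on the lower. The groups did not overlap for 14 members (58.3%), against 40.6% of all genes, and the 95% interval lay within 2-fold for 12 (50%), against 75.5%. The median log2 fold change was -0.15, with 11 members higher and 13 lower, beside -0.0005 over all genes. By stage it was -0.23 for 5 transcription factors (*Sox10* added), -0.02 for 4 OPC genes and -0.29 for 6 committed genes. For 7 myelin genes (*Mobp* added) it was 0.02, and for the 2 lipocalins 0.79. The sign thus differed from that by the labels for the transcription factors and the OPC genes. For the myelin genes it differed only through *Mobp* (log2 fold change 0.58, SE 0.97), which was not tested by the labels. The 6 myelin genes tested in both comparisons were *Aspa* (-1.18), *Opalin* (-1.08), *Cldn11* (-0.75), *Mbp* (0.02), *Ugt8a* (0.35) and *Cnp* (0.44). Their middle values were -0.75 and 0.02, so without *Mobp* the median stayed below 0.

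The members nearest the threshold in these 4 libraries were *Aspa* and *Cspg4*. *Aspa* had a log2 fold change of -1.18 (SE 0.26) and an adjusted p of 0.136 in edgeR's quasi-likelihood test. In the library labelled control 3 it was at 0.620 CPM, below all 3 cre labels, and its log2 fold change over the 6 libraries was -0.68 (SE 0.54). *Cspg4* had a log2 fold change of 0.38 (SE 0.08) and an adjusted p of 0.144 in the same test. *Cnp* followed at 0.44 (SE 0.12, adjusted p = 0.207 in edgeR), *Opalin* at -1.08 (SE 0.34, adjusted p = 0.290 in edgeR) and *Pdgfra* at -0.88 (SE 0.28, adjusted p = 0.299 in edgeR). Without control 2, *Pdgfra* was at -0.39 (adjusted p = 0.610 in edgeR), and without control 1 at -1.24. *Sox10* had a log2 fold change of -1.93 (SE 0.65, adjusted p = 0.319 in edgeR), from 13 and 31 counts against 4 and 7. *Nkx2-2* was at -0.38 (SE 0.14) and *Bcas1* at -0.73 (SE 0.29).

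Calls in the 4 libraries depended on the tool. DESeq2 called *Cspg4* higher (2.81% of all genes called), and the likelihood-ratio test called *Cspg4* higher and *Aspa* lower (3.66%). The exact test called *Cspg4* and *Cnp* higher and *Pdgfra* and *Aspa* lower (3.75%), limma-voom called 0 members (0.435%), and the quasi-likelihood test with no filter called 8 of 30 (4.77%): *Lhfpl3*, *Cspg4*, *Cnp* and *Apod* higher, and *Nkx2-2*, *Bcas1*, *Pdgfra* and *Aspa* lower. *Bcas1* rested on control 2, its highest library. With control 2 as the lone control the quasi-likelihood test called it lower (log2 fold change -1.14, adjusted p = 0.0255 in edgeR), and without control 2 its log2 fold change was -0.17 (adjusted p = 0.778 in edgeR).

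The *Apod* value rested on 1 library that also held RNA of other cell types. By the labels its log2 fold change was 1.10 (SE 0.58, adjusted p = 1.00 in edgeR), and without cre 1 it was 0.19. The summed level of 12 vascular and leptomeningeal markers was 28.4 CPM in cre 1, against 2.42 to 3.28 CPM in the control labels and 2.46 and 2.55 CPM in the other cre labels, and 10 of the 12 were highest in cre 1. Most of the sum came from *Col1a1*, *Col1a2*, *Col3a1* and *Dcn*, matrix genes of fibroblasts, at 5.39, 5.51, 9.20 and 4.71 CPM there. The list members not highest in cre 1 were *Kdr* and *Slc6a13*. *Kdr* was at 1.21 CPM in cre 1 and at 1.00 to 1.71 CPM elsewhere, and *Slc6a13* was at 0 in cre 1. The summed level of 8 microglia markers was 3.56 CPM in cre 1 against 0.207 to 0.742 CPM elsewhere, and 5 of the 8 were highest in cre 1. *C1qa* made up 2.03 CPM of the sum there, whereas *P2ry12* was at 0.282 CPM against 0.471 and 0.564 CPM in control 1 and 2, and *Cx3cr1* and *Aif1* were at 0 in cre 1. *Mag* also had its 4 counts in cre 1. The part of these cells in the *Apod* and *Mag* values was not tested beyond leaving out cre 1.

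**Figure D5:**
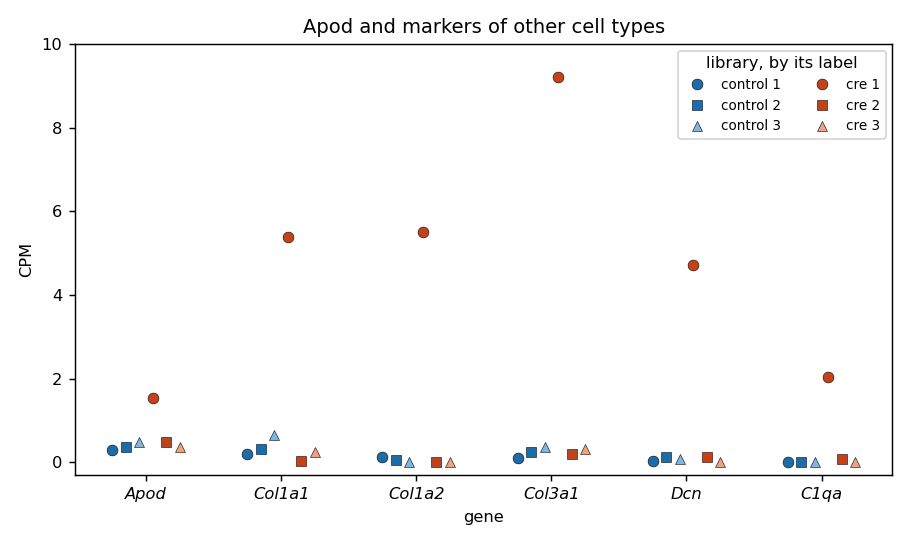
*Apod* and 5 markers of connective tissue and microglia (x axis) in CPM (y axis, linear) for each library, by its label. In cre 1 *Apod* is at 1.52 CPM and *Col3a1* at 9.20 CPM, above the other 5 libraries, which lie under 1 CPM for all 6 genes.

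Other genes of the lineage, 104 in the table beside the 30 members, were read from the same fits. By the labels, of the 81 tested, 0 passed an adjusted p of 0.05 in edgeR's quasi-likelihood test and 12 had an unadjusted p under 0.05, which is 14.8% against the 5.0% of all genes, with a median log2 fold change of 0.02. *Gpr37*, a receptor gene of the myelin list named here after its values were seen, was at 2.86, 3.56 and 3.66 CPM in the control labels and 6.66, 7.09 and 5.78 CPM in the cre labels, with no overlap. Its log2 fold change was 0.95 (SE 0.17, adjusted p = 0.522 in edgeR's quasi-likelihood test), and DESeq2, the exact test and the likelihood-ratio test each called it higher. The lists held 15 tested transcription factors (highest *Tcf12* at 621 and *Zfp24* at 201 CPM on average), 17 OPC genes (*Ptprz1* at 3714 and *Sulf2* at 655 CPM), 9 committed genes (*Tns3* at 168 and *Frmd4a* at 107 CPM), 23 myelin genes (*Qk* at 1029 and *Gjc3* at 127 CPM) and 17 genes of PDGF, neuregulin and LIF signals (*Thra* at 158 and *Il6st* at 105 CPM).

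In the 4 libraries 3 of these 81 genes fell and 0 rose, beside the 0.459% of all genes called. *Tnr*, tenascin-R, a matrix glycoprotein of OPCs and oligodendrocytes, was at 73.0 and 62.5 CPM in control 1 and 2 and at 20.0 and 20.4 CPM in cre 1 and 2 (log2 fold change -1.75, SE 0.10, adjusted p = 0.00401 in edgeR). In the library labelled control 3 it was at 15.8 CPM and in that labelled cre 3 at 31.3 CPM. *Qdpr*, dihydropteridine reductase, fell by 1.00 on the log2 scale (SE 0.10, adjusted p = 0.0184 in edgeR), and *Vcan*, the proteoglycan versican, by 0.60 (SE 0.08, adjusted p = 0.0425 in edgeR). The call of *Vcan* was lost without control 1 and without cre 1, and those of *Tnr* and *Qdpr* held without any 1 of the 4 libraries. They belonged to the OPC list (*Tnr*, *Vcan*; 2 of 17) and the myelin list (*Qdpr*; 1 of 23), and 23 of the 81 had an unadjusted p under 0.05, which is 28.4% against 11.2% of all genes. By the labels the log2 fold changes of *Tnr*, *Qdpr* and *Vcan* were -1.08, -0.57 and -0.48, with adjusted p from 0.830 to 1.00 in edgeR.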

How the data were processed

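RNA was sequenced as stranded mRNA libraries on a NextSeq 500. The authors aligned reads to GRCm38.p5 with Subread and deposited whole-number counts per Ensembl release 87 gene, made with Rsubread. Versions and the strand and multi-mapping settings are not given in the sources used here. From the counts, edgeR 4.0.16 (R 4.3.3) was run with TMM normalization, filterByExpr and the quasi-likelihood test on genotype, with Benjamini-Hochberg adjustment over all genes tested. CPM used TMM-scaled sizes. Levels per kb used the exon union of a GRCm38 annotation of a later release. Alternatives were DESeq2 1.42.0, edgeR's likelihood-ratio and exact tests, limma-voom (limma 3.58.1), RLE or library size scaling, no filter, a filter of 1 CPM in at least 3 libraries (2 of the 4), a replicate block, and leaving out each library. Tests were checked on simulated counts in which every library followed its label. Since control 3 and cre 3 did not for *Tet3*, that check does not bear on the comparison by the labels. The members and gene lists were chosen with earlier results of these data known. All 30 members are named. From the other lineage lists and the NSC markers, genes were named if called (at most 4 a list), and where none was called the 2 of highest CPM were. Named outside this rule, with their values known, were *Tet3*, *Gfap*, *Sox9*, *Gpr37* and the vascular and microglia markers. Of the astrocyte markers only *Gfap* and *Sox9* are named, and no neuron, Schwann cell or ependymal markers are. Promoters are from RefSeq (GRCm38.p6).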

Additional observations from a re-analysis of the deposited data

How the results depend on the processing

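By the labels, the count of members past the threshold was 0 under every alternative run, and 209 of 216 fold changes from other settings kept their sign and their side of the threshold, as did 117 of 132 when 1 library was left out. The signs that turned were those of *Sox8* (-0.23), *C1ql1* (-0.39), *Fyn* (0.0391) and *Ptgds* (-0.0775) without the libraries labelled control 3 and cre 3, *C1ql1* with limma-voom (-0.0484), and *Mbp* with no filter (-0.000426). When 1 library was left out, the fold changes that turned ranged from -0.17 to 0.17 for *Sox8*, -0.43 to 0.27 for *C1ql1*, -0.44 to 0.15 for *Gpr17*, -0.27 to 0.0150 for *Myrf*, -0.0736 to 0.0390 for *Fyn*, -0.23 to 0.49 for *Mbp*, -0.10 to 0.40 for *Ugt8a* and -0.0820 to 0.19 for *Ptgds*. Of the other lineage genes 0 were called, against 1 with each of the exact test, the likelihood-ratio test and DESeq2, 3 without both of those libraries, and 0 to 1 with 1 library left out.

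In the 4 libraries the quasi-likelihood test called 0 members and 3 other lineage genes. DESeq2 called 1 and 10, edgeR's likelihood-ratio fit 2 and 12, its exact test 4 and 12, and no filter 8 and 16, while all genes called numbered 78 in the quasi-likelihood test and 478, 622, 638 and 1325 under these settings. Leaving out 1 library gave 0 to 1 members and 2 to 6 other lineage genes, with the remaining lone library of a group assumed to vary like the others. The fold changes that turned then ranged from -0.75 to 0.0615 for *C1ql1*, -0.87 to 0.20 for *Gpr17*, -0.48 to 0.80 for *Mbp*, -0.81 to 2.30 for *Mobp*, -0.14 to 1.10 for *Ugt8a* and -0.31 to 0.12 for *Ptgds*. The cause was not tested. Scaling moved the median of all genes by less than 0.1 on the log2 scale.

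The replicate numbers did not pair the libraries: deviations from the group means correlated at -0.09, 0.01 and -0.02 (Pearson's r across 16916 genes, which are not independent) for libraries of the same number. With the replicate number as a block, 0 members were called in either comparison, and *C1ql1* by the labels turned to -0.0512. Depth limits the 8 members with too few counts to test by the labels.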
